A study of Homo sapiens with 6 samples.

Results

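Chemokine genes that B cells are known to express were followed in Raji cells, a human Burkitt's lymphoma line of germinal centre origin, with and without overexpression of the transcription factor IRF4. They are the CXCR3 ligands CXCL9, CXCL10 and CXCL11, the CXCR5 ligand CXCL13, and the CC chemokines CCL3, CCL4, CCL5, CCL17 and CCL22. They were chosen by symbol, and all 9 were found among the 23459 genes of the deposited count table. The choice was made with the contrast between these same libraries already known. The members' values, fold changes and calls are therefore a description, and no p-value is given for them. The gene lists set beside the members were also drawn up with earlier results of these data known. Their counts called are a description too. The IRF4-overexpressing cells had been infected with lentivirus carrying human IRF4 cDNA, and the control cells with the empty vector. Infection lasted 5 days in both groups, and 3 µg/ml puromycin then selected the infected cells over 7 days. There were 3 libraries in each group. No label says that the replicates were separate infections or cultures, so p-values rest on how much these libraries vary, and that variation may be technical. All the cells belong to a single established line, and every library is bulk RNA, in which fewer cells expressing a gene and less RNA per cell cannot be told apart.

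Chemokines are small secreted proteins that draw cells along a gradient by binding receptors coupled to G proteins. CXCL9, CXCL10 and CXCL11 are best known as genes switched on by interferons, and their shared receptor CXCR3 guides activated T cells and NK cells. CXCL13 binds CXCR5 and draws B cells into follicles. CCL3, CCL4 and CCL5 are inflammatory chemokines that draw T cells and monocytes, and B cells are known to release CCL3 and CCL4 after antigen receptor triggering. CCL17 and CCL22 bind CCR4, which is carried by regulatory T cells among others, and are made by activated B cells and dendritic cells.

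The libraries held 33588248, 35920302 and 46210702 counts in IRF4-overexpressing replicates 1 to 3, and 41510523, 27681979 and 37949438 counts in control replicates 1 to 3. Levels are given as counts-per-million values (CPM) over library sizes scaled by TMM, a method that removes differences in composition. IRF4 itself was at 132 ± 15.8 CPM in IRF4-overexpressing libraries and 1.25 ± 0.203 CPM in control libraries (SD, n = 3 each) and so followed the labels. Libraries also varied within groups along a shared axis, which took up 74.3% of the within-group variance of log2 CPM. IRF4-overexpressing replicates 2 and 3 shared a side of it with control replicate 1, and IRF4-overexpressing replicate 1 shared the opposite side with control replicates 2 and 3. The ribosomal protein gene RPS16 shows this axis, at 626, 27.5 and 39.0 CPM in IRF4-overexpressing replicates 1 to 3 and at 153, 563 and 699 CPM in control replicates 1 to 3. The members' values on each side of it are given further on. Across all genes, 12079 passed the filter on low counts and were tested, and a gene was called at an adjusted p under 0.05 by edgeR's quasi-likelihood test.

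All 3 CXCR3 ligands were higher in every IRF4-overexpressing library than in any control library. CXCL9 (Entrez gene 4283) reached 42.7, 32.6 and 34.8 CPM in IRF4-overexpressing replicates 1 to 3, against 3.09, 3.24 and 4.65 CPM in control replicates 1 to 3. Its lowest IRF4-overexpressing library thus lay far above its highest control library, and its log2 fold change was 3.32 (SE 0.20), a 10.0-fold difference. CXCL10 (Entrez gene 3627) was the most abundant member on average, at 39.6, 60.6 and 63.6 CPM with IRF4 overexpressed, against 6.62, 5.99 and 5.85 CPM in control. The control libraries lay close together and IRF4-overexpressing replicate 1 stood lowest of its group. Its log2 fold change was 3.15 (SE 0.20), or 8.86-fold. CXCL11 (Entrez gene 6373) was also lowest in replicate 1 of its group and stood at a much lower level. It was at 1.57, 3.29 and 2.88 CPM with IRF4 overexpressed, against 0.373, 0.372 and 0.274 CPM in control. The log2 fold change was 2.93 (SE 0.35), or 7.60-fold, and rested on 54, 122 and 139 counts with IRF4 overexpressed and 15, 10 and 10 counts in control.

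**Figure D1:**
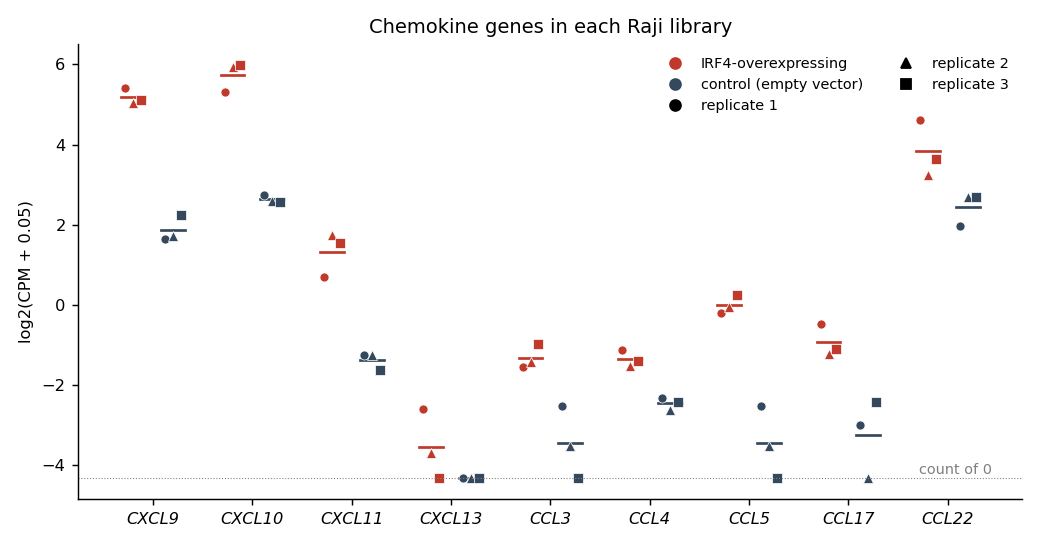
The plot gives log2(CPM + 0.05) of the 9 chemokine genes in each library, with IRF4-overexpressing libraries in red to the left of control libraries in dark blue, symbols for the replicate numbers and a bar at each group's mean on this scale. CXCL9 and CXCL10 stand highest with IRF4 overexpressed, and a dotted line marks a count of 0, where all control libraries of CXCL13 lie.

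These 3 genes lie next to each other on chromosome 4 in the RefSeq gene table of GRCh38.p14, with one further protein-coding gene, ART3, listed between CXCL9 and CXCL10. ART3 had 0 counts in every library. The flanking genes SDAD1 and NUP54 differed by -0.01 and 0.09 on the log2 scale and were not called.

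The sequence before the annotated start of 4 members is shown because these members carried nearly all of the chemokine RNA. RefSeq (GRCh38.p14) gives windows from 250 bases before to 50 bases after the start for 6 of the 9 members, namely CXCL9, CXCL10, CXCL11, CXCL13, CCL3 and CCL22. The 250 bases before the start are printed 5′ to 3′ for CXCL9 (chr4:76007510-76007759, minus strand), CXCL10 (chr4:76023498-76023747, minus strand), CXCL11 (chr4:76036071-76036320, minus strand) and CCL22 (chr16:57358533-57358782, plus strand). Capitals mark matches to the core of the interferon response element (GAAA, any 2 bases, then GAAA) and to the NF-kB consensus.
CXCL9: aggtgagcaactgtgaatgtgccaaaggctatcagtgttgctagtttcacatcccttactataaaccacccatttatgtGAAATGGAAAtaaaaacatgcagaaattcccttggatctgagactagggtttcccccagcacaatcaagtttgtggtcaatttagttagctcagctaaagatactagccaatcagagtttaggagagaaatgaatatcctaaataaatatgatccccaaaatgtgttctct
CXCL10: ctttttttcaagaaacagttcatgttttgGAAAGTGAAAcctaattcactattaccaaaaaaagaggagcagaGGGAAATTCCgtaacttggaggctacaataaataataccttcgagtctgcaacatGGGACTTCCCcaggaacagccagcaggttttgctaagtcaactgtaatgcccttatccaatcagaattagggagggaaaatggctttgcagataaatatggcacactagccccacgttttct
CXCL11: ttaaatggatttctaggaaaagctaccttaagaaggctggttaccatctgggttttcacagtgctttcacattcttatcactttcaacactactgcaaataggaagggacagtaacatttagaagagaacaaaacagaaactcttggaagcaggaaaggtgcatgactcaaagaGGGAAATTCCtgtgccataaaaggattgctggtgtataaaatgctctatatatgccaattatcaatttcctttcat
CCL22: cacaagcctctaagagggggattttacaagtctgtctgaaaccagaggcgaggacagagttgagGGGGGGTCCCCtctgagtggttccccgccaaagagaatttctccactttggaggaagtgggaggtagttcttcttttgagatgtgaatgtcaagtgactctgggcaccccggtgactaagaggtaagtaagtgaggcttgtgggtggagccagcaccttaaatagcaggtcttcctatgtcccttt

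The window of CXCL9 holds the interferon element core once, as GAAATGGAAA from position -171, counted back from the start. CXCL10 holds it once as GAAAGTGAAA from position -221. The core was found in 2 of the 6 member windows and in 3.66% of the 27305 windows searched, on either strand. The NF-kB consensus was found in 3 of the 6 windows and in 10.8% of all windows. This looser form was added after the strict form given below matched 0 of the 6 windows, so nothing is read from its count. CXCL10 holds it as GGGAAATTCC from -177 and as GGGACTTCCC from -122, the second of which matches on both strands, and CXCL11 holds GGGAAATTCC from -76. In CCL22 a run from -186 matches in 2 overlapping frames on both strands. CXCL11 also holds the STAT motif TTCNNNGAA from -240 and again from 19 bases after the start, and the AP-1 motif TGANTCA from -87, none of them overlapping its NF-kB match or in capitals. These motifs occur in 7.88% and 7.72% of all windows and in 1 member window each. The composite of an ETS and an IRF site, GGAA, any 2 bases, then GAAA (2.83% of all windows), a strict NF-kB form, GGGA, any base, then TTTCC (0.586%), and the STAT6 motif, TTC, any 4 bases, then GAA (6.38%) were found in 0 of the 6 windows. A match is a string of letters in a short window, and the counts here do not say whether any factor binds it.

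The CCR4 ligands were also higher in all IRF4-overexpressing libraries, with a wide spread. CCL22 (Entrez gene 6367) reached 24.6, 9.42 and 12.5 CPM in IRF4-overexpressing replicates 1 to 3, against 3.88, 6.40 and 6.37 CPM in control replicates 1 to 3. The groups did not overlap, but IRF4-overexpressing replicate 1 was far above the other two. The log2 fold change was 1.48 (SE 0.39), or 2.80-fold, and 0.98 without IRF4-overexpressing replicate 1. CCL17 (Entrez gene 6361), which lies close to CCL22 on chromosome 16 with CX3CL1 between them, was near the limit of detection. It had 23, 14 and 20 counts with IRF4 overexpressed, against 3, 0 and 5 counts in control. Summed over the group, this was 0.476 CPM (exact 95% Poisson interval 0.361 to 0.617) with IRF4 overexpressed and 0.0772 CPM (0.0333 to 0.152) in control. These intervals cover counting error only. The log2 fold change of CCL17 was 2.60 (SE 0.61), and it ran from 2.17 without control replicate 2 to 3.35 without control replicate 3. CX3CL1, the chemokine gene between the pair, had 10, 3 and 3 counts with IRF4 overexpressed and 1, 4 and 1 counts in control, and did not pass the count filter.

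CCL3, CCL4 and CCL5 were weak in these cells, and among them CCL5 differed most. CCL5 (Entrez gene 6352) had 28, 34 and 55 counts in IRF4-overexpressing libraries, against 5, 1 and 0 counts in control libraries. That was 0.977 CPM (exact 95% Poisson interval 0.808 to 1.17) with IRF4 overexpressed and 0.0579 CPM (0.0213 to 0.126) in control. The groups did not overlap. Its log2 fold change of 3.99 (SE 0.57) was the highest fitted for any member, but it rests on 6 control counts. It was 5.64 without control replicate 1 and 3.39 without control replicate 3. CCL3 (Entrez gene 6348) had 10, 12 and 22 counts with IRF4 overexpressed and 5, 1 and 0 in control, and a log2 fold change of 2.59 (SE 0.68), which was 4.24 without control replicate 1 and 1.99 without control replicate 3. CCL4 (Entrez gene 6351) had 14, 11 and 16 counts with IRF4 overexpressed and 6, 3 and 5 in control, and a log2 fold change of 1.33 (SE 0.33). CCL4 had the lowest fold change of the members, and its groups did not overlap. CCL3 and CCL4 have near-identical copies, CCL3L1, CCL3L3 and CCL4L1, each of which is listed at 0 in all libraries. How reads shared with these copies were assigned is not given in the sources used here, so the levels of CCL3 and CCL4 are uncertain.

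CXCL13 (Entrez gene 10563) was barely seen. It had 4, 1 and 0 counts in IRF4-overexpressing replicates 1 to 3, and 0 counts in every control library. Summed over the group, this was 0.0418 CPM (exact 95% Poisson interval 0.0136 to 0.0975) with IRF4 overexpressed and 0 CPM (up to 0.0356) in control. With 5 counts in total and 4 of them in one library, no difference was detectable at this depth, and CXCL13 did not pass the filter.

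**Figure D2:**
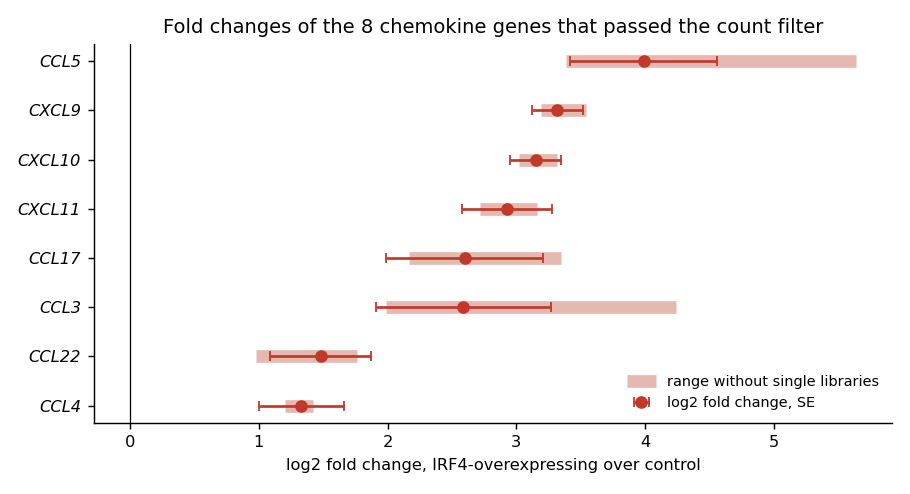
Points give the log2 fold change, IRF4-overexpressing over control, of the 8 members that passed the count filter, with bars for the SE, and pale bands give the range when each library is left out in turn. CCL5 and CCL3 have the widest bands, up to 5.64 and 4.24, while those of CXCL9 and CXCL10 run from 3.19 to 3.54 and from 3.02 to 3.32.

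Of the 9 members, 8 passed the filter, and 4 of these, CXCL9, CXCL10, CXCL11 and CCL5, were called higher and 0 lower by edgeR's quasi-likelihood test. Over all genes tested, 2.98% were called higher and 0.182% lower, or 3.16% in either direction. The members were proposed from this contrast, and those at few control counts passed the filter through the IRF4-overexpressing libraries, so nothing is read from their count. The 8 members also had no overlap between the groups, as did 13.5% of all genes tested in the higher direction. The number of members called moved with the background. Without IRF4-overexpressing replicate 1 it was 7, in a fit that called 19.9% of all genes higher and 25.1% lower. Without control replicate 2 it was 2, in a fit that called 0.975% of all genes higher.

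Within the IRF4-overexpressing group the members did not move together. Replicate 1 was the highest library of that group for CXCL9 and CCL22 and the lowest for CXCL10 and CXCL11. On a scale of log2(CPM + 0.5), replicate 1 differed from the mean of replicates 2 and 3 by 0.34 for CXCL9, -0.64 for CXCL10, -0.79 for CXCL11 and 1.13 for CCL22. For RPS16 the same difference was 4.21. In control, replicate 1 differed from the mean of replicates 2 and 3 by -0.31 for CXCL9, 0.15 for CXCL10, 0.09 for CXCL11, -0.65 for CCL22 and -2.04 for RPS16. CXCL9 and CCL22 thus had the sign of RPS16 in both groups, and CXCL10 and CXCL11 had the opposite sign in both. Each side of the axis holds both groups, so the contrast can be given within it. On the side of control replicate 1, IRF4-overexpressing libraries were 10.9-fold higher for CXCL9, 9.38-fold for CXCL10, 8.27-fold for CXCL11 and 2.82-fold for CCL22. On the side of IRF4-overexpressing replicate 1 they were 10.8-fold, 6.70-fold, 4.86-fold and 3.85-fold higher for the same genes. Each of these values has a single library in one group. For CCL4 the folds were 2.10 on the side of control replicate 1 and 3.28 on the side of IRF4-overexpressing replicate 1, and for CCL17 they were 5.30 and 9.78 on the same sides. CCL3 and CCL5 were 3.13-fold and 8.26-fold higher on the side of control replicate 1, and with 1 count in control on the opposite side no fold is given there. With a term for the side in the fit, the log2 fold changes of CXCL9, CXCL10, CXCL11 and CCL22 were 3.43, 2.98, 2.68 and 1.75.

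**Figure D3:**
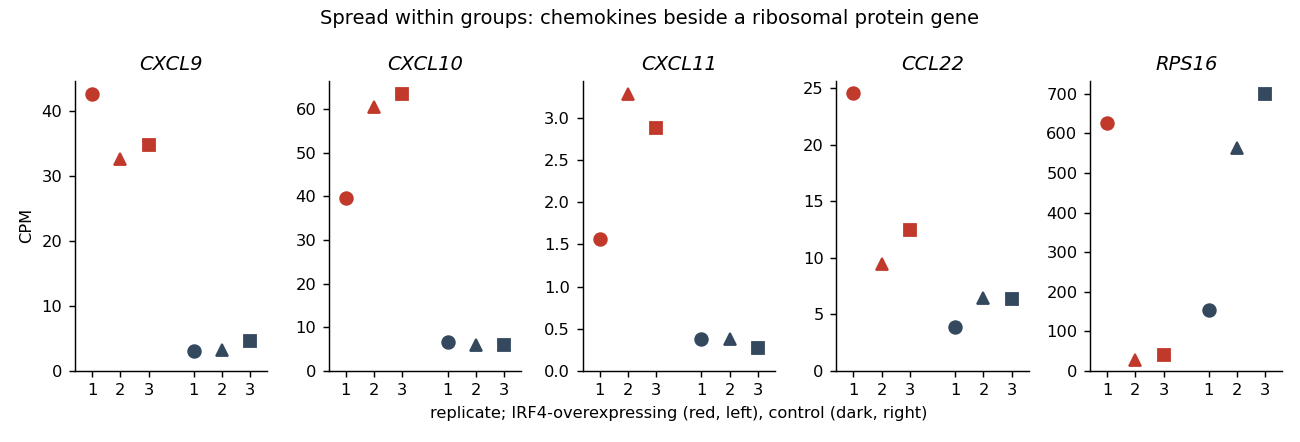
Each panel gives the CPM of one gene by replicate on an axis from 0, with IRF4-overexpressing libraries in red on the left and control libraries in dark blue on the right. Replicate 1 of the IRF4-overexpressing group is the highest of its group for CXCL9, CCL22 and the ribosomal protein gene RPS16 and the lowest for CXCL10 and CXCL11.

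The base composition of the members' transcripts differed. In the longest GENCODE 29 transcript, GC content was 40.1% for CXCL9, 37.5% for CXCL10 and 34.5% for CXCL11, so that 17.3%, 7.03% and 1.13% of tested genes had a lower one. CCL22 was at 52.7% and CCL17 at 58.0%, where 65.6% and 81.3% of tested genes had a lower one. CXCL13, CCL4, CCL3 and CCL5 were at 38.2%, 48.5%, 50.0% and 53.3%. Among the 11387 tested genes with a value, the median difference of IRF4-overexpressing replicate 1 from replicates 2 and 3 was -0.15, 0.02 and 0.10 from the lowest to the highest of 3 equal classes by GC content, on the log2(CPM + 0.5) scale. In control the difference of replicate 1 was 0.15, 0.00 and -0.18 over the same classes. CXCL10 and CXCL11 had the sign of their class, the lowest, in both groups, and CXCL9, in the same class, had the opposite sign in both. CCL22 belonged to the middle class. The part of base composition in the members' spread was not tested.

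Per length, CXCL10 led in both groups. Levels in RPKM, which are CPM divided by the deposited gene width in kilobases, were 32.6, 49.8 and 52.3 for CXCL10 in IRF4-overexpressing replicates 1 to 3, against 5.45, 4.93 and 4.81 in control replicates 1 to 3. With IRF4 overexpressed, CXCL10 was followed by CXCL9 (14.4 ± 2.09 RPKM, SD, n = 3), CCL22 (5.32 ± 2.75) and CXCL11 (1.61 ± 0.562), and no neighbours among these 4 overlapped. CXCL11 overlapped CCL17 (0.788 ± 0.256), and CCL17 overlapped CCL5 (0.779 ± 0.135). CCL4 (0.517 ± 0.0843) overlapped CCL3 (0.448 ± 0.110), and CXCL13 was last at 0.0397 ± 0.0506. In control, CXCL10 (5.06 ± 0.338) was followed by CCL22 (1.90 ± 0.495) and CXCL9 (1.44 ± 0.339), whose ranges overlapped. CXCL9 thus stood above CCL22 in every IRF4-overexpressing library and below it in every control library. From CXCL11 (0.212 ± 0.0358) down, each control level overlapped the next.

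The 9 members together summed to 68.8 ± 6.69 RPKM in IRF4-overexpressing libraries and 9.04 ± 0.330 RPKM in control libraries (SD, n = 3 each). The CXCR3 ligands made up 81.7%, 92.2% and 90.7% of this sum in IRF4-overexpressing replicates 1 to 3, against 78.1%, 72.5% and 72.3% in control replicates 1 to 3. Most of the remainder was CCL22, at 13.7%, 4.61% and 5.74% with IRF4 overexpressed and 15.1%, 24.7% and 23.2% in control. The ratio of CXCL10 to CXCL9 was 1.94, 3.89 and 3.82 with IRF4 overexpressed and 4.49, 3.87 and 2.63 in control, so these ranges overlapped.

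**Figure D4:**
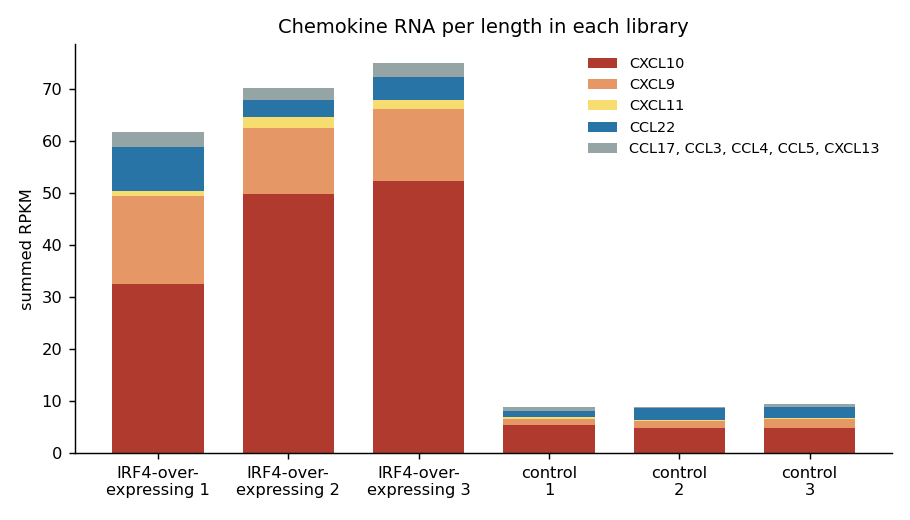
Stacked bars give the summed RPKM of the members in each library, with IRF4-overexpressing libraries on the left and control libraries on the right, split into CXCL10, CXCL9, CXCL11, CCL22 and the 5 others together. The bars reach 61.6 to 74.8 RPKM with IRF4 overexpressed and 8.83 to 9.42 RPKM in control, and CXCL10 is the largest part in every library.

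The genes whose profile over the 6 libraries was nearest to a member were found by the mean absolute difference of log2(CPM + 0.5), each gene set to its control mean, among 9490 tested genes that averaged 5 CPM or more. For CXCL10 they were SAMD9L, an interferon-inducible antiviral gene, and IFIT3, each 0.09 away. For CXCL9 they were IFIT3 and SAMD9L, 0.23 and 0.24 away. IFIT3, also known as induced by interferon, was at 23.9, 32.6 and 33.2 CPM with IRF4 overexpressed and 3.21, 2.83 and 3.39 CPM in control. For CXCL11 they were ISG15, which encodes a small ubiquitin-like protein, and SRGN, which encodes the proteoglycan serglycin, 0.04 and 0.09 away, where the added 0.5 CPM shrinks the differences of CXCL11 itself. For CCL22 they were TTN, which encodes the muscle protein titin, and TNFAIP3, 0.23 and 0.25 away. TNFAIP3, which encodes the ubiquitin-editing enzyme A20, was at 67.2, 35.1 and 39.6 CPM with IRF4 overexpressed and 19.5, 24.8 and 25.6 CPM in control. Like CCL22, it was highest in IRF4-overexpressing replicate 1 and lowest in control replicate 1. TNFAIP3 was not called (log2 fold change 1.02, edgeR adjusted p = 0.105).

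The other chemokine ligands were nearly silent. Of 38 found in the table, 25 had 0 counts in every library and 2 passed the filter, CCL25 and CXCL5. By edgeR's test 0 were called in either direction, 1 was higher and 0 lower at an unadjusted p under 0.05, and DESeq2 and limma-voom called 0. CCL25, known for drawing cells to the small intestine, had 20, 20 and 22 counts with IRF4 overexpressed and 4, 8 and 3 counts in control (log2 fold change 1.80, SE 0.45, edgeR adjusted p = 0.101). Without IRF4-overexpressing replicate 1 it was called, in a fit that called 19.9% of all genes higher. At few control counts, CCL25 had passed the filter through the IRF4-overexpressing libraries, so nothing is read from its values. CXCL5, a neutrophil attractant, differed by -0.16 on the log2 scale (SE 0.44) and did not pass (edgeR adjusted p = 0.841). The 9 members held 98.0% to 98.8% of all chemokine ligand RPKM with IRF4 overexpressed and 94.3% to 96.6% in control.

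The receptors of the CXCR3 and CCR4 ligands had few counts. CXCR3 had 5, 0 and 5 counts in IRF4-overexpressing libraries and 1, 2 and 2 in control libraries. CCR4 had 0, 1 and 0 counts with IRF4 overexpressed and 0 in each control library. CXCR5, the receptor of CXCL13, was well expressed, at 87.5 ± 5.22 CPM with IRF4 overexpressed and 57.9 ± 7.44 CPM in control (SD, n = 3 each). Its log2 fold change was 0.60 (SE 0.12), and its edgeR adjusted p of 0.05003 missed the threshold. Of the 7 receptors tested among 23, 2 rose and 0 fell by edgeR's test, against 2.98% and 0.182% of all genes tested, and their median log2 fold change was 0.40, against 0.01 over all genes tested. At an unadjusted p under 0.05, 4 were higher and 0 lower. DESeq2 called 4 higher and limma-voom 3, against 3.29% and 2.81% of all genes, and neither called any lower. CCR7, which guides cells to T cell zones, rose to 66.5 ± 14.4 CPM with IRF4 overexpressed, against 19.5 ± 2.13 CPM in control (log2 fold change 1.77, SE 0.18, edgeR adjusted p = 0.00375). ACKR1, an atypical receptor that binds many inflammatory chemokines without signalling, rose to 24, 17 and 25 counts, against 3, 2 and 1 in control (log2 fold change 3.19, SE 0.43, edgeR adjusted p = 0.0123). ACKR1 lost its call without IRF4-overexpressing replicate 3 or any one control library, which left 1 receptor called. At so few control counts it had passed the filter through the IRF4-overexpressing libraries, and with a minimum of 1 CPM in 3 libraries 1 receptor was called. CXCR4, the receptor of CXCL12, was at 209 ± 16.8 CPM with IRF4 overexpressed and 158 ± 5.49 CPM in control, and CCR6, the receptor of CCL20, at 30.3 ± 1.14 CPM with IRF4 overexpressed and 29.8 ± 0.542 CPM in control. Their log2 fold changes of 0.40 and 0.02 did not pass (edgeR adjusted p = 0.0821 and 0.876). The number of receptors called was 4 with library sizes alone, with DESeq2 or with the axis term, and 5 without IRF4-overexpressing replicate 1, where 19.9% of all genes were called higher.

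**Figure D5:**
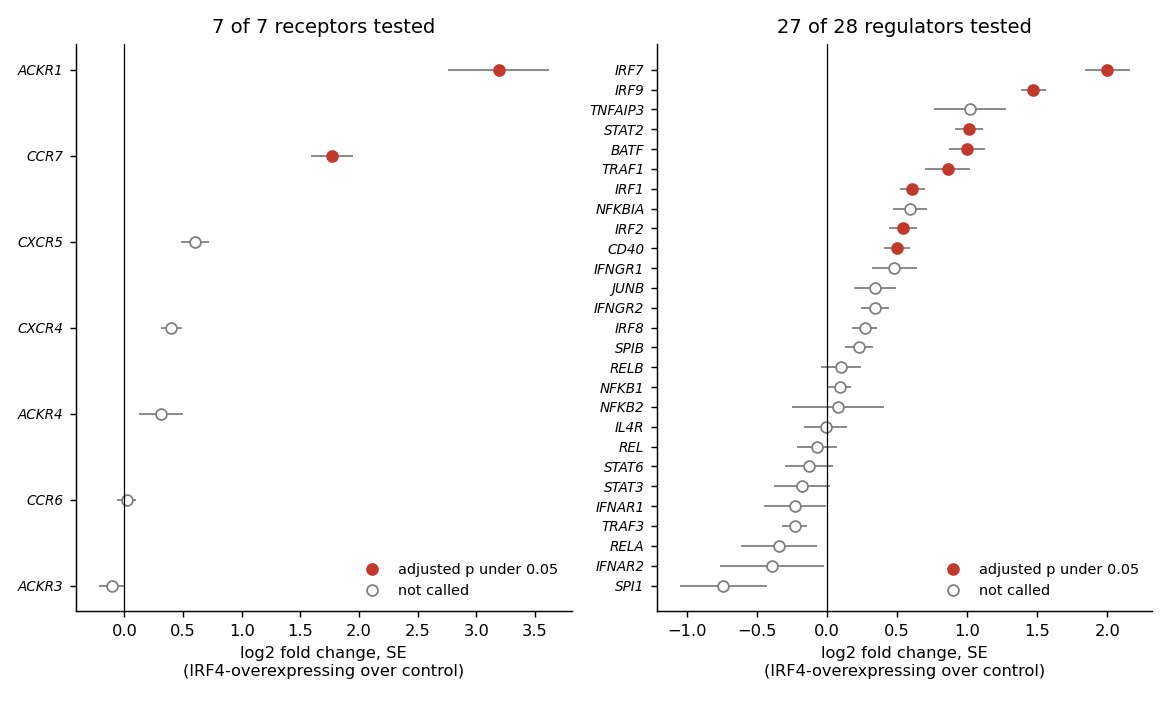
Points give the log2 fold change, IRF4-overexpressing over control, with bars for the SE, of the 7 chemokine receptors that were tested (left) and 27 of the 28 regulators of chemokine genes that were tested (right), filled in red where the adjusted p was under 0.05. ACKR1 and CCR7 are filled among the receptors. The regulators filled include IRF7, IRF9, STAT2, BATF, TRAF1, IRF1 and IRF2.

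Factors known to act on the member genes were taken as a list of 32, of which 28 were tested. The list was drawn up with earlier results of these data known, so its counts and median are a description. By edgeR's test 9 rose and 0 fell, against 2.98% and 0.182% of all genes tested, with a median log2 fold change of 0.31 against 0.01 over all genes. At an unadjusted p under 0.05, 14 were higher and 1 lower. DESeq2 called 11 higher and limma-voom 9, against 3.29% and 2.81% of all genes, and neither called any lower. STAT2 and IRF9 carry interferon signals to the interferon response element, and both rose. IRF9 was at 29.8 ± 0.869 CPM with IRF4 overexpressed and 10.7 ± 0.455 CPM in control (SD, n = 3 each), and STAT2 at 71.3 ± 6.66 CPM with IRF4 overexpressed and 35.4 ± 0.797 CPM in control. IRF9 and STAT2 had log2 fold changes of 1.47 and 1.01 (edgeR adjusted p = 8.94e-04 and 0.00365). IRF7, which amplifies interferon production, rose to 11.2 ± 1.39 CPM, against 2.82 ± 0.459 CPM in control (log2 fold change 2.00, SE 0.16, edgeR adjusted p = 0.00203). IRF7, IRF9 and STAT2 stayed called without each library in turn. BATF, an AP-1 factor that pairs with IRF4, rose to 10.5 ± 1.32 CPM, against 5.24 ± 0.307 CPM in control (edgeR adjusted p = 0.0123), and lost its call without any one control library. TRAF1, an adaptor of CD40 signalling, IRF1 and IRF2 rose by 0.86, 0.61 and 0.54 on the log2 scale (edgeR adjusted p = 0.0378, 0.0204 and 0.0471), and kept their calls only without IRF4-overexpressing replicate 1. STAT6, which carries the interleukin-4 signal known to induce CCL17 and CCL22, had a log2 fold change of -0.13 (SE 0.17), SPIB 0.23 (SE 0.10) and IRF8 0.27 (SE 0.09), none of which passed (edgeR adjusted p = 0.648, 0.272 and 0.173). Without single libraries, 4 to 16 regulators were higher, and 7 were lower without IRF4-overexpressing replicate 1, where 25.1% of all genes were called lower. Interferon beta and gamma were hardly seen, and neither was tested. IFNB1 had 9, 13 and 8 counts with IRF4 overexpressed and 0, 0 and 2 in control, and IFNG had 1, 1 and 2 counts with IRF4 overexpressed and 0, 1 and 0 in control.

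Genes for proteins that cut or hold chemokines gave 1 rise and 0 falls among 6 tested of 13 by edgeR's test, against 2.98% and 0.182% of all genes tested, with a median log2 fold change of 0.14 against 0.01 over all genes. At an unadjusted p under 0.05, 2 were higher and 0 lower, and DESeq2 and limma-voom called 1 higher and 0 lower. SRGN, whose proteoglycan product stores chemokines in secretory granules, rose to 72.6 ± 17.2 CPM with IRF4 overexpressed, against 21.2 ± 2.14 CPM in control (SD, n = 3 each), a log2 fold change of 1.78 (SE 0.19) with an edgeR adjusted p of 0.00535. It stayed called without each library in turn. The proteases CTSS, ADAM17 and ADAM10 differed by 0.50, 0.06 and -0.13 on the log2 scale and missed the threshold (edgeR adjusted p = 0.128, 0.632 and 0.618). DPP4, the protease that trims CXCR3 ligands, had 0, 1 and 0 counts with IRF4 overexpressed and 0 in each control library. SRGN was also one of the genes nearest in profile to CXCL11, on the scale where the added 0.5 CPM shrinks the differences of CXCL11. The fitted log2 fold changes of SRGN and CXCL11 were 1.78 and 2.93.

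Cells other than B cells can make these chemokines, and their markers were read in the same libraries. The 9 B cell markers summed to between 2450 and 2580 CPM in IRF4-overexpressing libraries and between 2390 and 2540 CPM in control libraries, and 0 of them were called by edgeR, with 2 higher and 0 lower at an unadjusted p under 0.05, 1 called by DESeq2 and 0 by limma-voom. The 19 myeloid and dendritic markers summed to between 11.7 and 15.6 CPM with IRF4 overexpressed and between 5.33 and 5.48 CPM in control. Of 7 of them tested, 3 rose and 0 fell by edgeR's test, ITGAM, MS4A7 and LAMP3, against 2.98% and 0.182% of all genes tested. Their median log2 fold change was 1.92 against 0.01 over all genes, with 5 higher and 0 lower at an unadjusted p under 0.05. DESeq2 called 4 of the list higher and limma-voom 3, against 3.29% and 2.81% of all genes, and neither called any lower. The other 12 markers did not pass the count filter. At few control counts, LAMP3 and ITGAX had passed it through the IRF4-overexpressing libraries, which can raise this median and these counts. ITGAM, an integrin chain, was at 2.48 ± 0.220 CPM with IRF4 overexpressed and 0.652 ± 0.0625 CPM in control (SD, n = 3 each). MS4A7 was at 4.83 ± 0.243 CPM with IRF4 overexpressed and 2.13 ± 0.208 CPM in control, and LAMP3 at 0.978 ± 0.271 CPM with IRF4 overexpressed and 0.220 ± 0.0472 CPM in control. LAMP3 lost its call without IRF4-overexpressing replicate 3 or any one control library. CSF1R, a receptor of macrophages, had 140, 45 and 67 counts with IRF4 overexpressed and 13, 14 and 16 in control (log2 fold change 2.38, SE 0.56), and was not called (edgeR adjusted p = 0.0846). ITGAX had 27, 10 and 13 counts with IRF4 overexpressed and 4, 2 and 4 in control (log2 fold change 2.11, SE 0.62), and was not called (edgeR adjusted p = 0.147). The remaining tested markers, LYZ and CD68, differed little, with log2 fold changes of 0.18 (SE 0.25) and 0.20 (SE 0.24). Neither was called (edgeR adjusted p = 0.667 and 0.623). IL3RA, which was not tested, had 4, 2 and 6 counts with IRF4 overexpressed and 0 in each control library. FCGR1A, FCGR3A, S100A9, FCER1A, CLEC9A and CLEC10A were at 0 counts in all 6 libraries. CD14 had 3, 3 and 7 counts with IRF4 overexpressed and 1, 3 and 2 in control. The 17 T and NK markers found summed to between 0.663 and 0.945 CPM with IRF4 overexpressed and between 0.335 and 0.547 CPM in control, with CD2, CD7, CD8A, CD8B, GNLY, GZMB and NCAM1 at 0 in all libraries. The 14 epithelial, mesenchymal and kidney markers, read because the virus was grown in 293T kidney cells, summed to between 2.21 and 4.13 CPM with IRF4 overexpressed and between 0.598 and 1.23 CPM in control, and 8 of them were at 0 in all libraries. Most of that sum was COL1A1, a collagen gene, with 129, 44 and 81 counts with IRF4 overexpressed and 19, 30 and 31 in control (log2 fold change 1.46, SE 0.51, edgeR adjusted p = 0.192). CDH1 had 9, 29 and 16 counts with IRF4 overexpressed and 3, 0 and 2 in control. KRT8 had 2, 2 and 2 counts with IRF4 overexpressed and 1, 3 and 8 in control. COL1A1 was the one gene of this list tested by edgeR, was higher at an unadjusted p under 0.05 and was not called. DESeq2, which was not limited to the genes kept by edgeR's filter, called 1 gene of this list higher and 0 lower. It called 3.29% of all genes higher, and limma-voom called 0 of this list. What part such cells have in the members' values was not tested.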

How the data were processed

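RNA of Raji cells was sequenced as TruSeq Stranded mRNA libraries, 3 with IRF4 overexpressed and 3 with the empty vector, per the labels' protocols. The authors deposited 1 table of raw counts, with genes as rows and libraries as columns. The deposited table also gives 1 width per gene, in bases by its values. The submitters' processing notes name the builds hg19 and mm9, and the aligner, counting tool, annotation and strand setting are not given in the sources used here. Columns called WT were matched to the control titles by replicate number. Of 23459 Entrez identifiers, 23308 matched a RefSeq symbol, and the other 151 held 0.122% of counts. Protein features were not analysed here, and values of some listed genes are not reported here.

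The members, the gene lists and the tests were chosen with earlier results of these data known. Counts were scaled by TMM and filtered by filterByExpr in edgeR 4.0.16 under R 4.3.3. The quasi-likelihood fit had group as its sole term, the test was two-sided, and p-values were adjusted by Benjamini-Hochberg over the 12079 genes kept. The SE is the absolute log2 fold change divided by the square root of F. The fit was tested on simulated data before use. No pair of replicates fell within sampling noise (chi-square per gene 6.5 to 184.7). Named were the members, up to 8 called genes and the 3 most abundant others of each list, and for each member with a mean of at least 1 CPM the 2 genes nearest in profile. The receptors of the members, interferon beta and gamma, DPP4, CX3CL1 and the cell type markers were named after their values were seen. Promoter letters came from RefSeq windows, and GC content from GENCODE 29, which had a value for 94.3% of the genes tested. The NF-kB consensus was added after the strict motif matched no member. Alternatives were limma-voom (limma 3.58.1), DESeq2 1.42.0, edgeR with RLE factors or with library sizes alone, edgeR with no filter or with a minimum of 1 CPM in 3 libraries, a replicate block, an axis term and leaving out each library. Figures were drawn with matplotlib 3.10.9.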

Additional observations from a re-analysis of the deposited data

How the results depend on the processing

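All 108 alternative fits of the 8 tested members kept a positive log2 fold change, and 15 moved by more than 1 SD of the libraries, all of them for CCL3, CCL4, CCL5 or CCL17. Over all genes, 382 were called (360 higher, 22 lower), against 776 with DESeq2 (571 higher, 205 lower), 1098 with the axis term (709 higher, 389 lower), and 123 to 5507 without single libraries. The 5507 came without IRF4-overexpressing replicate 1 and were mostly lower (2436 higher, 3071 lower). Members called numbered 2 to 7 without single libraries. With the axis term, 1 other ligand, 4 receptors, 14 regulators (1 of them lower) and 2 processing genes were called. Receptors called numbered 4 with library sizes alone and with DESeq2, and 1 with a minimum of 1 CPM in 3 libraries, under which CCL3, CCL4, CCL5 and CCL17 gave no value. Without single libraries, 0 to 1 other ligands, 1 to 5 receptors, 4 to 23 regulators and 1 to 3 processing genes were called.

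Same-numbered replicates did not deviate together (correlations of -0.649, -0.219 and -0.467 over genes). Each such pair lay on opposite sides of the axis, so these correlations cannot show whether same-numbered libraries shared an infection or culture. With the replicate block, edgeR called 3 genes in all and 0 members, 0 receptors, 0 regulators and 0 processing genes, while 8, 4, 12 and 2 of these were higher and 0 of each lower at an unadjusted p under 0.05. The axis was read from these counts, so p-values with its term are too small. With a pseudocount of 0.1 or 2 CPM, 6 of the 8 nearest genes were the same, and by CPM 5 of 9 places in the order of levels were the same. CXCL13, CCL3, CCL4, CCL5 and CCL17 are limited by counts of 0 to 55 per library.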
